A study of Mus musculus with 12 samples.

Results

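The cytochrome P450 family 4 holds the omega-hydroxylases of fatty acids, and 10 of its genes were followed here in primary cultured mouse hepatocytes. They were taken by symbol from the 22471 features of the deposited tables and comprised 6 Cyp4a genes (Cyp4a10, Cyp4a12a, Cyp4a12b, Cyp4a14, Cyp4a31 and Cyp4a32), 3 Cyp4f genes (Cyp4f13, Cyp4f14 and Cyp4f15) and Cyp4v3. All 10 were present in the tables, and the rule that chose them reads the symbol alone. The tables held 10 further Cyp4 symbols, which are described separately below.

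RNA sequencing covered 12 libraries, 3 in each of 4 groups: control (Con), oleic acid (ConOA, here OA), benzbromarone (BBR) and benzbromarone together with oleic acid (BBROA, here BBR+OA). Benzbromarone is a uric acid-lowering drug, and oleic acid is a fatty acid that loads hepatocytes with triglyceride. The cells came from 6-week-old male C57BL/6J mice and were given BBR at 15 µM, OA at 0.2 mM or both for 16 h. OA was added on bovine serum albumin, and what the control wells received in its place is not given in the sources used here. No group carries a transgene or a deletion. It is not stated whether the 3 libraries of a group represent different mice or different wells, so each p-value measures the spread between these libraries, which may be technical.

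CYP4 enzymes sit in the membrane of the endoplasmic reticulum and add a hydroxyl group to the terminal carbon of a fatty acid, with electrons passed on by cytochrome P450 reductase and cytochrome b5. The hydroxy acid is then oxidized to a dicarboxylic acid, which peroxisomes shorten. In mouse liver, Cyp4a10 and Cyp4a14 are textbook targets of the nuclear receptor PPAR alpha, the Cyp4a12 genes are known for higher levels in males and for making the eicosanoid 20-HETE from arachidonic acid, and Cyp4f enzymes are known for inactivating leukotriene B4.

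The Cyp4a genes lie side by side on chromosome 4 (mm10, which is GRCm38). In GENCODE release 21 the order along the chromosome is Cyp4a12a (chr4:115299046-115332815, plus strand), Cyp4a12b (chr4:115411624-115439034, plus), Cyp4a14 (chr4:115486200-115496142, minus), Cyp4a10 (chr4:115518264-115533649, plus), Cyp4a31 (chr4:115563649-115579015, plus) and Cyp4a32 (chr4:115600969-115621602, plus). Cyp4f15 (chr17:32685627-32703352, plus), Cyp4f14 (chr17:32905070-32917342, minus) and Cyp4f13 (chr17:32924688-32947402, minus) lie on chromosome 17, and Cyp4v3 (chr8:45304944-45333216, minus) lies on chromosome 8. All 10 are annotated as protein coding.

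How alike the copies are decides how well their counts can be told apart, so 60 bases of coding sequence around the cysteine that binds the heme are shown, the stretch that all P450 enzymes share. Each stretch joins the ends of 2 neighbouring exons of the GENCODE transcript with the longest coding sequence. Capitals mark bases that differ from Cyp4a10 in the Cyp4a genes, and from Cyp4f14 in the Cyp4f genes and Cyp4v3.
Cyp4a10: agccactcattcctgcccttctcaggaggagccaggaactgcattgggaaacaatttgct
Cyp4a12a: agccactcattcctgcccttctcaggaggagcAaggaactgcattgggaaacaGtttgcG
Cyp4a14: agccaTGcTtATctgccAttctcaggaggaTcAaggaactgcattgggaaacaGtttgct
Cyp4f14: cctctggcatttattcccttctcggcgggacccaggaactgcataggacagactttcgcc
Cyp4f13: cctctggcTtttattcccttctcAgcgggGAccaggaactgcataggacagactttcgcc
Cyp4f15: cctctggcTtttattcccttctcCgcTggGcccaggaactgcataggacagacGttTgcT
Cyp4v3: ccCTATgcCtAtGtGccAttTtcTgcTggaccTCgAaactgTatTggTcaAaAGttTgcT
Cyp4a31 and Cyp4a32 have the Cyp4a10 stretch with 0 differences, and Cyp4a12b has the Cyp4a12a stretch. Cyp4a12a differs from Cyp4a10 at 3 bases and Cyp4a14 at 9. Cyp4f13 differs from Cyp4f14 at 4 bases, Cyp4f15 at 7 and Cyp4v3 at 23.

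Over the whole coding sequence, Cyp4a12a and Cyp4a12b were 98.5% identical, Cyp4a10 and Cyp4a32 97.2%, Cyp4a10 and Cyp4a31 96.6%, and Cyp4a31 and Cyp4a32 96.0%. Cyp4a14 was 75.9% identical to Cyp4a10. Of all windows of 100 bases along the transcript, 35.8% of Cyp4a12a, 36.2% of Cyp4a12b, 20.1% of Cyp4a32, 12.7% of Cyp4a10 and 8.22% of Cyp4a31 occurred unchanged in another Cyp4 gene. No such window was found in Cyp4a14, the Cyp4f genes or Cyp4v3. The same 5 genes carried the fractional counts: Cyp4a12a and Cyp4a12b in 12 of 12 libraries, Cyp4a10 in 10, Cyp4a32 in 6 and Cyp4a31 in 5, while the other 5 genes had whole counts in every library. How such reads were divided is not given in the sources used here, so values of single genes within these sets of copies are uncertain.

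**Figure D1:**
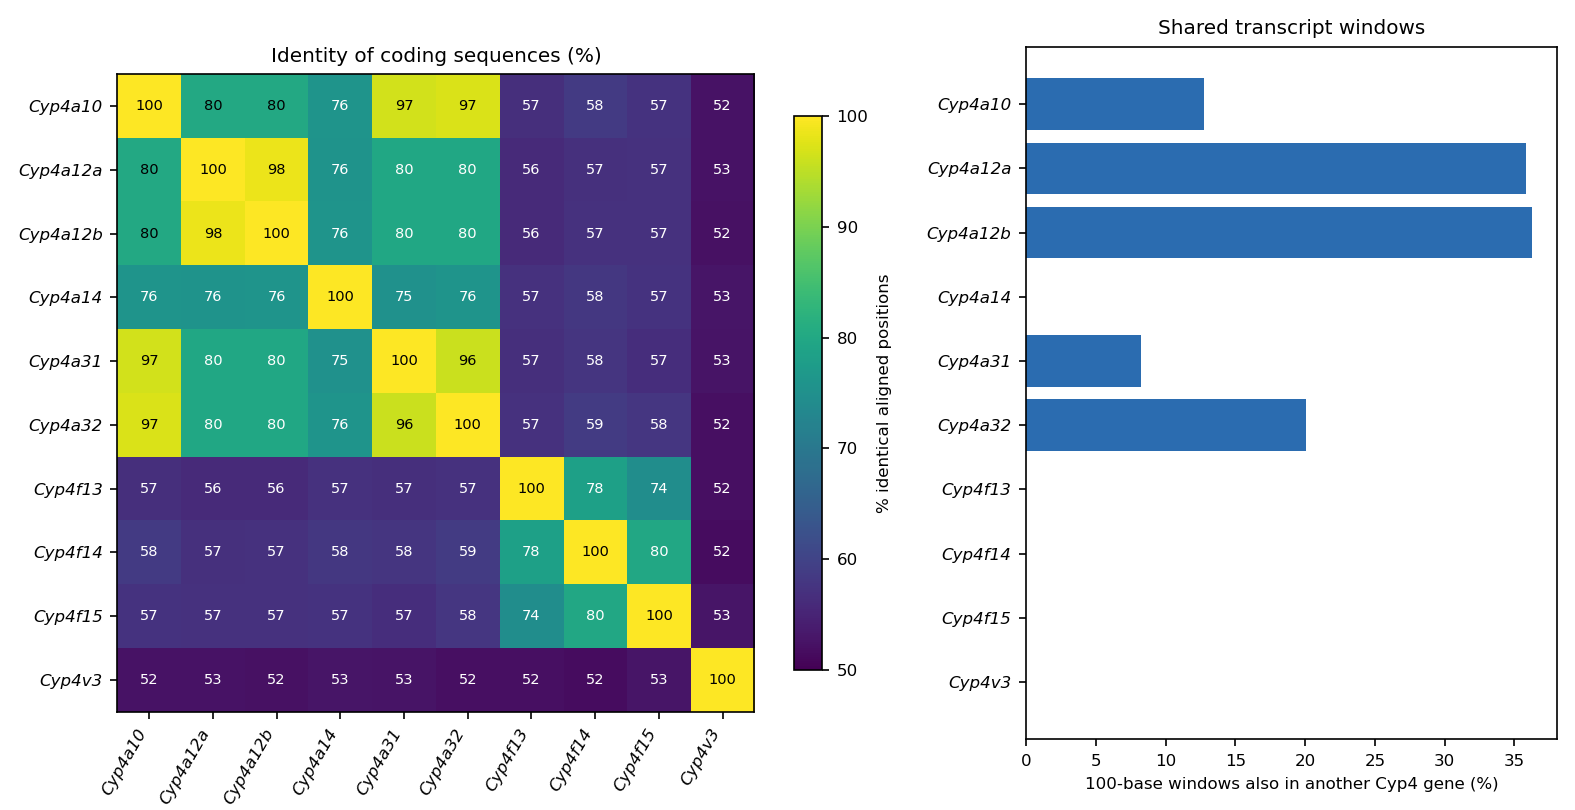
Left, percent identity of coding sequences for each pair of the 10 Cyp4 genes, from alignments of GENCODE transcripts. Right, percent of the 100-base windows of each transcript that occur unchanged in another Cyp4 gene: about 36% for the Cyp4a12 pair, 8.22% to 20.1% for Cyp4a10, Cyp4a31 and Cyp4a32, and 0 for the other 5 genes.

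Total counts ranged from 15485508 to 23668379 per library, so that 3 counts, the limit that a count of 0 allows, corresponded to 0.127 to 0.194 CPM (counts scaled to a common library total). This limit covers counting error only. The label of the cells was checked against 8 hepatocyte markers, all present, whose summed level was 43676 to 51757 CPM. Markers of other liver cells were low: 8 Kupffer cell markers summed to 22.8 to 37.0 CPM, 7 endothelial markers to 50.2 to 66.8 CPM, 6 stellate cell markers to 19.1 to 26.1 CPM and 6 cholangiocyte markers, which include the widely expressed Spp1, to 199 to 722 CPM. None of these markers was at 0 in all libraries. In such bulk samples, fewer cells of a type and less RNA per cell cannot be told apart. Mitochondrially encoded genes took 5.50% to 6.07% of counts in control, 5.63% to 6.28% in OA, 6.34% to 6.89% in BBR and 6.09% to 6.59% in BBR+OA, so that the BBR and BBR+OA libraries lay above the control libraries.

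Levels can be set beside each other between genes only per transcript length, in FPKM as the authors deposited it. On that scale Cyp4v3 was the highest of the 10 genes in control cells, at 34.1 ± 0.519 FPKM (SD, n = 3), followed by Cyp4f13 at 18.8 ± 0.972, Cyp4f14 at 11.2 ± 1.61 and Cyp4a12a at 10.8 ± 0.269. Cyp4f14 and Cyp4a12a had overlapping ranges there (9.49 to 12.7 and 10.48 to 10.96 FPKM). Cyp4a12b stood at 3.43 ± 0.581 FPKM and Cyp4a10 at 3.14 ± 0.800 in control cells, again with overlapping ranges. Cyp4f15 reached 1.29 ± 0.235 FPKM, and Cyp4a32, Cyp4a14 and Cyp4a31 stayed at 0.333 ± 0.155, 0.320 ± 0.176 and 0.0333 ± 0.0231. The textbook PPAR alpha targets Cyp4a10 and Cyp4a14 ranked 6 and 9 of the 10 in control cells by this scale, and Cyp4a10 ranged from 2.34 to 8.32 FPKM over the 12 libraries and Cyp4a14 from 0.120 to 0.630.

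By subfamily, the 6 Cyp4a genes summed to 18.05 ± 1.63 FPKM in control, 16.2 ± 0.400 in OA, 23.5 ± 3.02 in BBR and 20.2 ± 0.783 in BBR+OA (SD, n = 3). All 3 BBR sums (26.95, 21.7 and 21.7 FPKM) lay above the 3 control sums (19.85, 17.6 and 16.7), and the BBR+OA sums (20.7, 19.3 and 20.6) lay above the OA sums (15.8, 16.6 and 16.1). The share of the Cyp4a genes in the summed FPKM of all 10 genes was 21.6% ± 0.997 in control, 21.3% ± 0.643 in OA, 27.0% ± 1.82 in BBR and 25.4% ± 0.576 in BBR+OA. The 3 Cyp4f genes summed to 31.3 ± 1.94 FPKM in control, 26.6 ± 1.92 in OA, 32.7 ± 1.14 in BBR and 28.2 ± 2.19 in BBR+OA. These sums are given as descriptions, without a test.

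**Figure D2:**
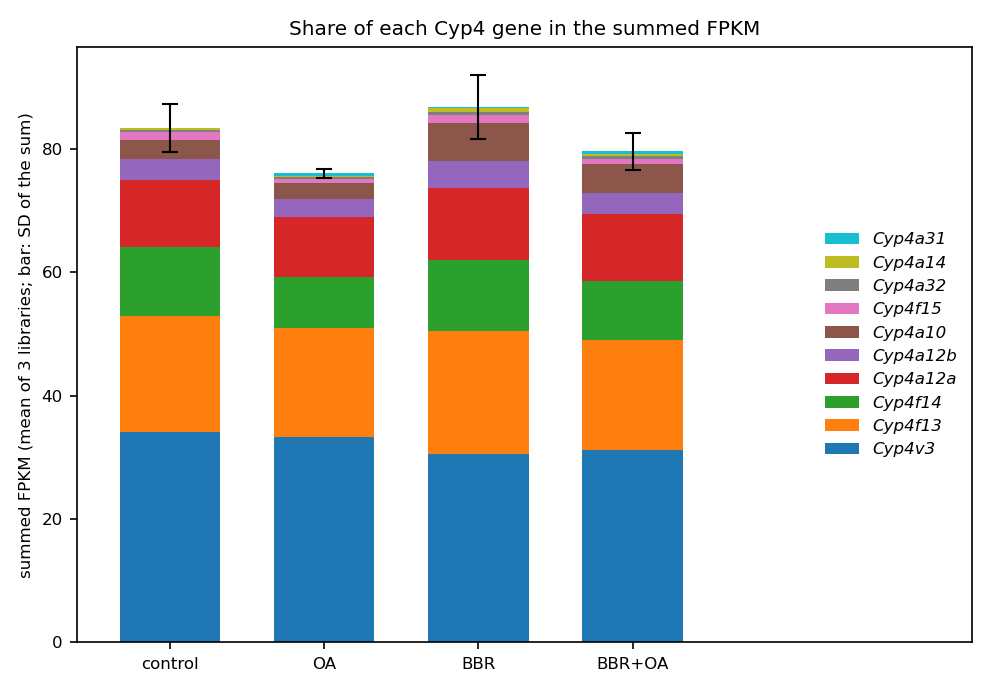
Deposited FPKM of the 10 Cyp4 genes stacked for each group (y axis, mean of 3 libraries), with the SD of the sum over libraries as the error bar. Cyp4v3 and the Cyp4f genes make up most of each bar, and the sums were 83.4 FPKM in control, 76.0 in OA, 86.7 in BBR and 79.6 in BBR+OA.

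BBR was first compared with control cells, without added OA. Of 9 genes tested, 2 were higher and 1 was lower, where 13.2% of all genes tested were higher and 14.5% lower. Cyp4a10, a lauric acid omega-hydroxylase, rose 2.04-fold, Cyp4a12b rose 1.31-fold, and Cyp4v3, an omega-hydroxylase of medium-chain fatty acids, fell to 0.909 of its control level. The median log2 fold change of the 9 genes was 0.13, against -0.00085 over all genes tested. Cyp4a31 was left out of this test by the filter on low counts.

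Cyp4a10 had 8.38, 5.77 and 5.43 CPM in the 3 control libraries and 17.4, 10.6 and 10.9 CPM in the 3 BBR libraries. Every BBR library was above every control library, and BBR replicate 1 stood far above the other two. The log2 fold change was 1.03 (SE 0.19, adjusted p = 0.000582, edgeR). Without BBR replicate 1 it was 0.74 (adjusted p = 0.00211). Markers of other liver cells moved in the same comparison: 3 of 7 endothelial markers were higher (sums of 54.2 to 57.1 CPM in control and 61.6 to 66.8 in BBR), and of 4 cholangiocyte markers tested 3 were higher and 1, Spp1, lower (590 to 722 and 391 to 421 CPM). The fall of the cholangiocyte sum was that of Spp1 (mean 613 CPM in control and 343 in BBR). Of 8 Kupffer cell markers 1 was lower (26.3 to 30.3 and 22.8 to 30.1 CPM), and 0 of 4 stellate cell markers passed (19.1 to 21.9 and 20.3 to 22.8 CPM). The share of mitochondrially encoded genes was higher in all BBR libraries than in all control libraries, and BBR replicate 1 had the highest (6.89%). The part of the markers and of this share in the changes of the Cyp4 genes was not tested.

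Cyp4a12b had 9.58, 7.63 and 7.07 CPM in control and 12.4, 9.40 and 9.52 CPM in BBR. The groups overlapped, since the highest control library lay above the lower BBR libraries. The log2 fold change was 0.39 (SE 0.14, adjusted p = 0.0395). The call was lost without control replicate 2 (adjusted p = 0.117), without control replicate 3 (0.167) and without BBR replicate 1 (0.216), and in DESeq2 (0.0613). Its neighbour Cyp4a12a, with 98.5% identical coding sequence, had 25.9, 26.2 and 25.3 CPM in control and 28.8, 28.3 and 27.4 CPM in BBR, ranges that did not overlap, with a log2 difference of 0.13 (SE 0.062, adjusted p = 0.123). With the counts of the pair summed, the log2 fold change was 0.20 (adjusted p = 0.0273).

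Cyp4v3 had 129, 126 and 130 CPM in control and 120, 115 and 113 CPM in BBR. All 3 BBR libraries were below all control libraries, by a small margin. The log2 fold change was -0.14 (SE 0.045, adjusted p = 0.0303). The call was lost in DESeq2 (adjusted p = 0.0606) and whenever control replicate 1 (0.0757), 2 (0.0534) or 3 (0.0751), or BBR replicate 2 (0.0864) or 3 (0.122) was left out.

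The other genes did not pass the test in BBR against control. Cyp4a14, the classical PPAR alpha target beside Cyp4a10, had 1.10, 0.286 and 0.968 CPM in control and 1.56, 1.48 and 0.968 CPM in BBR. The lowest BBR library was level with a control library, and the log2 fold change of 0.77 had an SE of 0.37 (adjusted p = 0.142). These values rest on 6 to 34 reads per library. Cyp4a32 had 8 to 16.2 reads in control and 7.23 to 20 in BBR, with a log2 difference of 0.66 (SE 0.40, adjusted p = 0.249). The Cyp4f genes had log2 fold changes of 0.11 (Cyp4f13, SE 0.060), 0.053 (Cyp4f14, SE 0.097) and 0.021 (Cyp4f15, SE 0.20), with adjusted p-values of 0.2004, 0.731 and 0.9498. The Cyp4f13 libraries did not overlap, with 33.2, 33.3 and 30.8 CPM in control and 34.4, 35.02 and 34.9 in BBR. That gap is not read as a rise, and the share of all genes with such a gap was not computed.

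**Figure D3:**
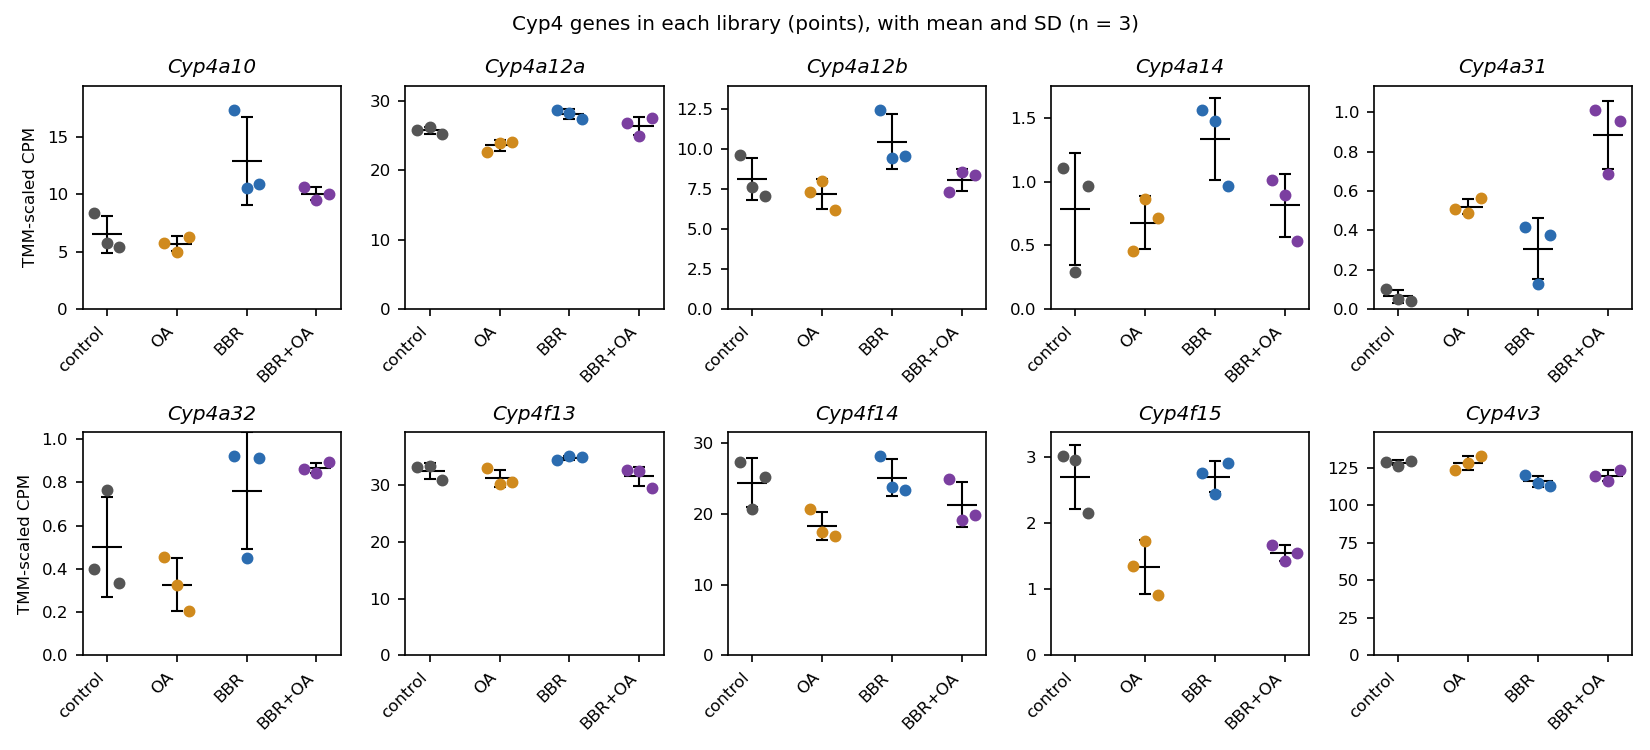
TMM-scaled CPM (y axis, from 0) of each Cyp4 gene in the 12 libraries, in replicate order within each group on the x axis, with the mean and SD (n = 3) as bars. Cyp4a10 lies above control in every BBR and BBR+OA library, Cyp4f15 is low in every OA and BBR+OA library, and Cyp4a31 is at 0.0421 to 0.1003 CPM in the control libraries.

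In the presence of OA, BBR+OA was compared with OA. Of 10 genes tested, 1 was higher and 0 lower, where 1.95% of all genes tested were higher and 2.63% lower. That gene was again Cyp4a10, which rose 1.77-fold. It had 5.77, 4.98 and 6.28 CPM in OA and 10.7, 9.51 and 10.01 CPM in BBR+OA, with no overlap and little spread in either group. The log2 fold change was 0.82 (SE 0.12, adjusted p = 0.00120), and 0.73 to 0.91 when any 1 library was left out. The median log2 fold change of the 10 genes was 0.22, against -0.00031 over all genes tested.

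Cyp4a32, the near copy of Cyp4a10, came closest among the others. It had 8, 6.45 and 4.09 reads in OA, or 0.453, 0.325 and 0.204 CPM, and 17, 16 and 15 reads in BBR+OA, or 0.860, 0.845 and 0.893 CPM. The groups did not overlap, but the log2 difference of 1.40 (SE 0.39) missed the threshold at an adjusted p of 0.0534. The gene entered the test only through its BBR+OA libraries. Cyp4a31 had 0.509, 0.487 and 0.562 CPM in OA and 1.01, 0.687 and 0.953 CPM in BBR+OA, also without overlap, with a log2 difference of 0.75 (SE 0.34, adjusted p = 0.242). Cyp4a12a, Cyp4a12b, Cyp4a14, the Cyp4f genes and Cyp4v3 had log2 fold changes between -0.10 (Cyp4v3) and 0.27 (Cyp4a14), with adjusted p-values from 0.223 to 0.930.

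Whether the effect of BBR differed with and without OA was tested as an interaction on all 12 libraries. Of the 10 genes, 0 passed, and 0 had an unadjusted p under 0.05, in edgeR as in DESeq2, where 12.2% of all genes tested in edgeR passed. For Cyp4a10 the difference between the log2 fold changes was -0.19 (SE 0.26, adjusted p = 0.696), and without BBR replicate 1 it was 0.096 (adjusted p = 0.825). The largest estimate was that of Cyp4a31, -1.50 (SE 0.74, adjusted p = 0.212), where 4 reads in all in the control group set the reference. The SE of 0.57 for Cyp4a14 and 0.58 for Cyp4a32 shows how wide the estimates of the low genes were.

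**Figure D4:**
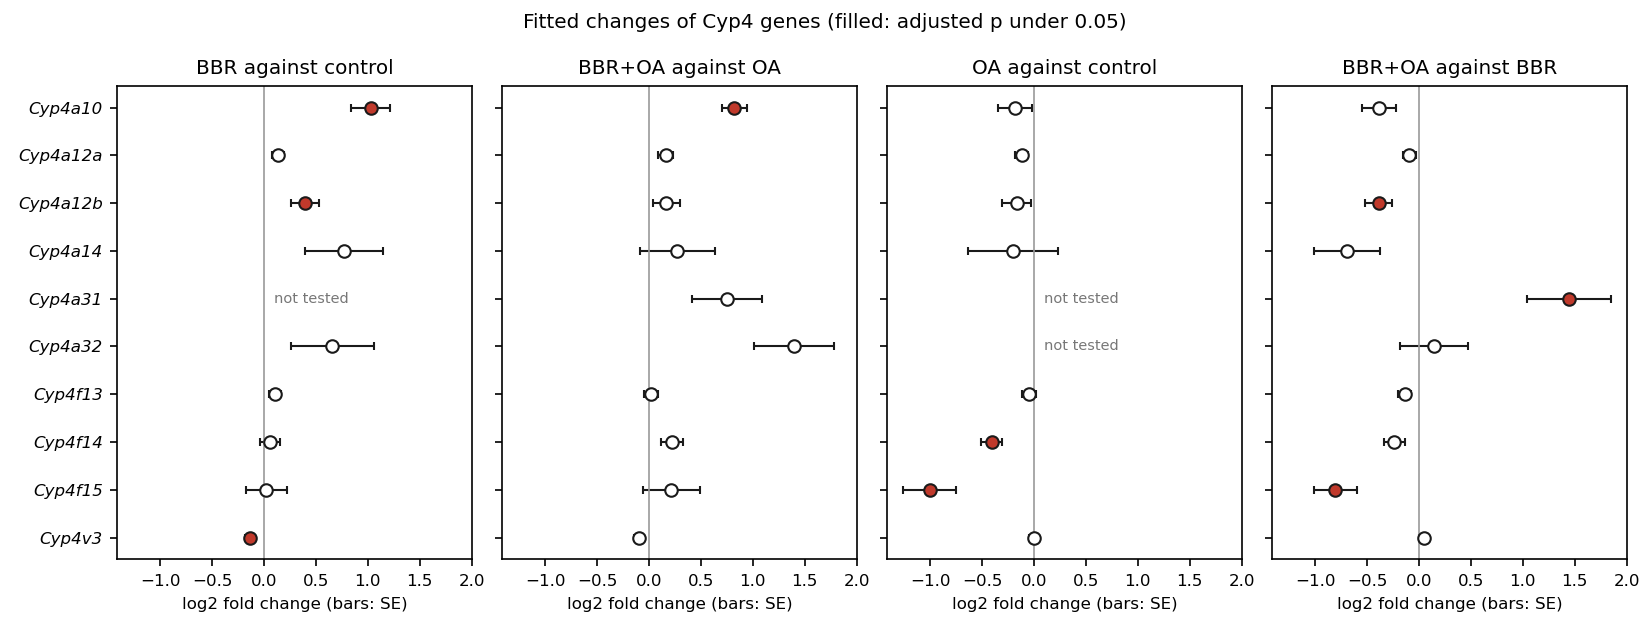
Log2 fold change with its SE (x axis) of each Cyp4 gene in 4 comparisons, with filled points for an adjusted p under 0.05 in edgeR. Cyp4a10 is filled in both BBR comparisons (1.03 and 0.82), and Cyp4f15 in both OA comparisons (-1.01 and -0.81).

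OA alone was compared with control to see the fatty acid load without the drug. Of 8 genes tested, 0 were higher and 2 were lower, where 21.3% of all genes tested were higher and 21.5% lower. Both were Cyp4f genes: Cyp4f15 fell to 0.498 of its control level and Cyp4f14, the main leukotriene B4 omega-hydroxylase of mouse liver, to 0.753. With upper quartile scaling, the split of all calls in this comparison moved from 49.8% to 39.2% higher, and both Cyp4f genes were still called. The median log2 fold change of the 8 genes was -0.17, against -0.0060 over all genes tested.

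Cyp4f15 had 3.01, 2.96 and 2.15 CPM in control and 1.36, 1.73 and 0.919 CPM in OA. No OA library reached the lowest control library. The log2 fold change was -1.01 (SE 0.25, adjusted p = 0.00516). Cyp4f14 had 27.4, 20.7 and 25.3 CPM in control and 20.7, 17.4 and 17.0 CPM in OA, where the highest OA library lay just under the lowest control library. Its log2 fold change was -0.41 (SE 0.10, adjusted p = 0.00545). Cyp4f13, the most abundant of the 3, had 33.2, 33.3 and 30.8 CPM in control and 32.9, 30.2 and 30.4 CPM in OA, overlapping ranges with a log2 difference of -0.049 (SE 0.065, adjusted p = 0.578).

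Markers of other cells moved in the same comparison. Of 8 Kupffer cell markers, 6 were lower and 2, Adgre1 and Marco, higher, with a summed level of 26.3 to 30.3 CPM in control and 24.3 to 32.0 CPM in OA. Of 6 endothelial markers tested, 1 was higher and 0 lower, and their sum was 54.2 to 57.1 CPM in control and 50.2 to 63.0 in OA. The cholangiocyte markers summed to 590 to 722 CPM in control and 242 to 272 in OA, with Spp1 lower by a log2 fold change of -1.58 and Sox9 higher by 0.60. Of 3 stellate cell markers tested, Reln was higher and Col1a1 lower, with sums of 19.1 to 21.9 and 21.1 to 26.1 CPM. Their part in the fall of the Cyp4f genes was not tested.

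No Cyp4a gene passed the test in OA against control. Cyp4a10 had 5.77, 4.98 and 6.28 CPM in OA, within or just below the control values, with a log2 difference of -0.18 (SE 0.17, adjusted p = 0.401). Without control replicate 1, the highest control library, that value was 0.030. Cyp4a12a had 22.7, 24.03 and 24.2 CPM in OA, below all 3 control libraries, at a log2 difference of -0.12 (SE 0.066, adjusted p = 0.157). Cyp4v3 had 123, 128 and 132 CPM in OA, around its control values, at 0.0032 (SE 0.048, adjusted p = 0.965).

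Cyp4a31 and Cyp4a32 were not tested in this comparison because of low counts. Cyp4a31 had 2, 1 and 1.01 reads in the control libraries and 9, 9 and 11.1 in OA. All 3 control libraries were under the floor of 3 reads and all 3 OA libraries were above it. Per total count, the 29 reads in OA against 4 in control were a ratio of 8.24 (exact 95% interval 2.89 to 32.25, counting error only). In a fit on all 12 libraries, the log2 fold change was 2.94 (SE 0.58, adjusted p = 0.000419). The gene entered that fit only through its BBR+OA libraries, where it was high, so this p is not read as support. Cyp4a32, in contrast, had 8.06, 16.2 and 8 reads in control and 8, 6.45 and 4.09 in OA, and a log2 difference of -0.61 (SE 0.46, adjusted p = 0.298) in that fit.

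BBR+OA was compared with BBR for the effect of OA in the presence of the drug. Of 10 genes tested, 1 was higher and 2 were lower, where 20.1% of all genes tested were higher and 18.8% lower. With upper quartile scaling, the share of higher genes among all calls moved from 51.7% to 40.8%, and 6 of the 10 genes passed, the additional ones Cyp4a10, Cyp4f13 and Cyp4f14 as lower. Cyp4f15 had 2.76, 2.45 and 2.90 CPM in BBR and 1.67, 1.43 and 1.55 CPM in BBR+OA, a clear gap between the groups. It fell by 0.81 in log2 units (SE 0.21, adjusted p = 0.00674), as it had without BBR. Cyp4f14 had 28.2, 23.8 and 23.4 CPM in BBR and 24.9, 19.1 and 19.9 CPM in BBR+OA. These ranges overlapped, at a log2 difference of -0.24 (SE 0.10, adjusted p = 0.0740), which passed without BBR+OA replicate 1 (-0.37, adjusted p = 0.00649).

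Cyp4a12b had 12.4, 9.40 and 9.52 CPM in BBR and 7.29, 8.56 and 8.34 CPM in BBR+OA, without overlap. It fell by 0.39 in log2 units (SE 0.13, adjusted p = 0.0261), a call lost without BBR replicate 1 (adjusted p = 0.158), BBR+OA replicate 1 (0.0967) or BBR+OA replicate 3 (0.0505). Cyp4a10 had 17.4, 10.6 and 10.9 CPM in BBR and 10.7, 9.51 and 10.01 CPM in BBR+OA, so that the groups overlapped narrowly and BBR replicate 1 made most of the gap. Its log2 fold change was -0.39 (SE 0.16, adjusted p = 0.0718), -0.095 without BBR replicate 1, and past the threshold without BBR replicate 2 (adjusted p = 0.0265) or 3 (0.0352).

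In the same comparison, 3 of 6 endothelial markers were lower and 2 higher (61.6 to 66.8 CPM in BBR and 60.4 to 61.8 in BBR+OA), 2 of 8 Kupffer cell markers were lower and 2 higher (22.8 to 30.1 and 29.4 to 37.0 CPM), and 2 of 4 cholangiocyte markers were lower (391 to 421 and 199 to 240 CPM). Their part in these changes was not tested.

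Cyp4a31 was the gene counted as higher in BBR+OA. It passed the filter on low counts only through the BBR+OA libraries, where it was high, so its call is not read as support. It had 9.06, 2 and 7 reads in BBR, or 0.414, 0.129 and 0.377 CPM, and 20, 13 and 16.2 reads in BBR+OA, or 1.01, 0.687 and 0.953 CPM. Every BBR+OA library was above every BBR library, and BBR replicate 2, the library with the lowest total count, was under the floor of 3 reads. The log2 fold change was 1.44 (SE 0.40, adjusted p = 0.0114), and 1.14 without BBR replicate 2 (adjusted p = 0.0512). With the counts of Cyp4a10, Cyp4a31 and Cyp4a32 summed, the direction was the opposite (-0.27, adjusted p = 0.190).

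Both agents together were compared with control. Of 10 genes tested, 2 were higher and 1 was lower, where 21.6% of all genes tested were higher and 22.2% lower. Cyp4a31, counted among the higher genes, entered the test only through the BBR+OA libraries, so its call is not read as support. With upper quartile scaling, the share of higher genes among all calls moved from 49.2% to 40.4%, and Cyp4v3 passed as lower (-0.14, adjusted p = 0.0145). The cholangiocyte markers summed to 590 to 722 CPM in control and 199 to 240 in BBR+OA, with 2 of 4 higher and 1, Spp1, lower. The fall of this sum was that of Spp1 (mean 613 and 166 CPM). Of 8 Kupffer cell markers 2 were higher and 2 lower (26.3 to 30.3 and 29.4 to 37.0 CPM). Of 6 endothelial markers 1 was higher (54.2 to 57.1 and 60.4 to 61.8 CPM), and their part in these changes was not tested. Cyp4a10 rose 1.55-fold (log2 0.63, SE 0.14, adjusted p = 0.00155), with all BBR+OA libraries above all control libraries. Cyp4f15 fell to 0.576 of control (log2 -0.80, SE 0.22, adjusted p = 0.00802), with no overlap. Cyp4a31 had 2, 1 and 1.01 reads in control, under the floor of 3 reads, and 20, 13 and 16.2 in BBR+OA, a ratio of 13.995 per total count (exact 95% interval 5.13 to 53.4, counting error only). BBR alone gave 18 reads in all against 4 in control, a ratio of 5.17 (1.70 to 21.01, counting error only). The adjusted p for Cyp4a31 was 0.0126 in the fit on all 12 libraries (edgeR). The gene entered that fit only through its BBR+OA libraries, where it was high, so this p is not read as support. Without control replicate 2, Cyp4a32 (log2 1.22, adjusted p = 0.0309) and Cyp4f14 (-0.30, adjusted p = 0.0299) passed too, and Cyp4f14 also passed without BBR+OA replicate 1 (-0.33, adjusted p = 0.0163). Cyp4a32 entered that fit only through its BBR+OA libraries, so its pass is not read as support.

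The FPKM of Cyp4a31 did not follow its counts. Per CPM of the plain library total it ranged from 0.414 to 1.01 FPKM over the libraries, a factor of 2.44, while for the other 9 genes the factor was at most 1.05. By deposited FPKM, the OA level of Cyp4a31 was 12 times the control level, and by TMM-scaled CPM 8.19 times.

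OA and BBR were also set against each other. Of 8 genes tested, 7 passed, where 41.0% of all genes tested did. Cyp4a10 (log2 -1.20, SE 0.18, adjusted p = 0.000109), Cyp4f15 (-1.02, SE 0.24, 0.00398), Cyp4a12b (-0.55, SE 0.14, 0.00506), Cyp4f14 (-0.46, SE 0.096, 0.00166) and Cyp4a12a (-0.25, SE 0.067, 0.00812) were lower in OA. The OA and BBR libraries did not overlap for any of the genes but Cyp4a32. The share of all genes without overlap was not computed, so these gaps are not read as a result about the Cyp4 genes. Cyp4a14 was lower too (-0.96, SE 0.33, 0.0287), a call lost in DESeq2 (adjusted p = 0.0746), in the fit on all 12 libraries (0.0558) and without OA replicate 1 (0.117), OA replicate 3 (0.0609), BBR replicate 1 (0.120) or BBR replicate 2 (0.0832). Cyp4v3 was higher in OA (0.15, SE 0.050, 0.0292), which was lost with upper quartile scaling (adjusted p = 0.137) and without OA replicate 2 (0.0615), OA replicate 3 (0.0646), BBR replicate 2 (0.0799) or BBR replicate 3 (0.106). The split of all calls moved from 51.2% to 40.6% higher with that scaling. Cyp4a32, not tested here for its low counts, had 0.453, 0.325 and 0.204 CPM in OA and 0.920, 0.451 and 0.915 CPM in BBR, ranges that just overlapped. Markers of other cells moved here too: 5 of 8 Kupffer cell markers were lower in OA and 2 higher (24.3 to 32.0 CPM in OA and 22.8 to 30.1 in BBR), 3 of 6 endothelial markers were lower and 2 higher (50.2 to 63.0 and 61.6 to 66.8 CPM), and 3 of 4 cholangiocyte markers were lower (242 to 272 and 391 to 421 CPM). Their part in the changes of the Cyp4 genes was not tested.

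By mean CPM, the order of the groups differed between the genes. For Cyp4a10 it was BBR (13.0 ± 3.85), BBR+OA (10.1 ± 0.585), control (6.53 ± 1.61) and OA (5.68 ± 0.656), where only the step from BBR+OA to control passed the test among neighbours. Cyp4a12a and Cyp4a14 had the same order with no neighbouring step past the threshold, at 28.2, 26.5, 25.8 and 23.6 CPM and at 1.34, 0.815, 0.786 and 0.678 CPM. Cyp4a12b ran from BBR (10.4 ± 1.71) over control (8.10 ± 1.32) and BBR+OA (8.06 ± 0.680) to OA (7.16 ± 0.923), with only the first step past the threshold. Cyp4a31 ran from BBR+OA (0.884 ± 0.173) over OA (0.519 ± 0.0383) and BBR (0.306 ± 0.155) to control (0.0634 ± 0.0321), and Cyp4a32 from BBR+OA (0.866 ± 0.0246) over BBR (0.762 ± 0.270) and control (0.501 ± 0.230) to OA (0.327 ± 0.124). Among those steps, BBR+OA to OA for Cyp4a31 and the first and second for Cyp4a32 were tested and did not pass.

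For Cyp4f15 the order fell into an upper pair, control (2.71 ± 0.484) and BBR (2.70 ± 0.235), and a lower pair, BBR+OA (1.55 ± 0.122) and OA (1.34 ± 0.407), and only the step between the pairs passed. Cyp4f13 (34.8, 32.4, 31.5 and 31.2 CPM) and Cyp4f14 (25.1, 24.5, 21.3 and 18.3 CPM) were both in the order BBR, control, BBR+OA and OA, with no neighbouring step past the threshold. Cyp4v3 ran from control (128 ± 1.78) over OA (128 ± 4.58) and BBR+OA (120 ± 3.52) to BBR (116 ± 3.53), again with no such step.

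With the reads of near copies added up, Cyp4a10, Cyp4a31 and Cyp4a32 together had 7.09 ± 1.60 CPM in control, 6.52 ± 0.654 in OA, 14.02 ± 4.11 in BBR and 11.8 ± 0.753 in BBR+OA (SD, n = 3). The sum rose in BBR against control (log2 1.02, adjusted p = 0.000434) and in BBR+OA against OA (0.85, adjusted p = 0.000495). The sum of Cyp4a12a and Cyp4a12b was 33.9 ± 1.54, 30.8 ± 1.10, 38.6 ± 2.25 and 34.5 ± 1.24 CPM in the same groups. That sum fell in BBR+OA against BBR (-0.17, adjusted p = 0.0411).

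Promoter sequence could be matched for 5 of the 10 genes in RefSeq (GRCm38.p6): Cyp4a32, Cyp4f13, Cyp4f14, Cyp4f15 and Cyp4v3. The 250 bases before the start were searched on both strands for AGGTCA, the hexamer that nuclear receptors bind, for AGGTCANAGGTCA, the direct repeat with 1 spacer that PPAR and RXR bind, and for CCAAT. The hexamer occurred in 0 of the 5, against 13.96% of 27025 promoters, and the direct repeat in 0, against 0.0407%. The exact repeat was found in only 11 promoters of all, and most promoters lack the hexamer too. Their absence from these 5 is therefore not read as a result. The promoters of Cyp4a10 and Cyp4a14 were not searched. CCAAT occurred once, on the minus strand, in all but Cyp4v3, against 34.2% of promoters. In the 3 Cyp4f promoters it was part of the 7 bases GGATTGG, found in 4.21% of promoters and searched after these sequences had been read. They are shown from 100 to 41 bases before the RefSeq start, with GGATTGG in capitals, because 2 of these genes fell with OA and 1 did not pass.
Cyp4f13 (chr17:32947402-32947461, minus strand): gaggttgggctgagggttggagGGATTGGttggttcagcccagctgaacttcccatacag
Cyp4f14 (chr17:32917383-32917442, minus strand): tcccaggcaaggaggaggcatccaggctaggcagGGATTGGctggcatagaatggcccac
Cyp4f15 (chr17:32685559-32685618, plus strand): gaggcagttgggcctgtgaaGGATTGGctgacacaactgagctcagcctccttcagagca
The first base of GGATTGG stood at -78 in Cyp4f13, -66 in Cyp4f14 and -80 in Cyp4f15. A match is a description of the letters and not a binding site.

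Of the 10 further Cyp4 symbols, 3 passed the filter: Cyp4f16 (22.6 to 35.3 FPKM over the libraries), Cyp4f17 (3.14 to 5.48) and Cyp4b1 (0.290 to 1.28). The other 7 had at most 2 reads in any library. Cyp4f16 rose in BBR against control (log2 0.19, adjusted p = 0.0440) and fell in OA against control (-0.21, adjusted p = 0.0169) and in BBR+OA against BBR (-0.42, adjusted p = 8.88e-05). Cyp4f17 fell in OA against control (-0.54, adjusted p = 0.00118) and in BBR+OA against BBR (-0.46, adjusted p = 0.0128). Cyp4b1 went the other way and was higher in BBR+OA than in BBR (1.06, adjusted p = 0.0170) and than in control (0.97, adjusted p = 0.0216). In BBR+OA against OA, 0 of the 3 passed, and their median log2 fold change was 0.043.

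The steps that follow omega-hydroxylation were described by a list of 20 genes for alcohol and aldehyde dehydrogenases and for the peroxisomal oxidation of dicarboxylic acids. Of all genes tested, 13.2% were higher and 14.5% lower in BBR against control, and 1.95% and 2.63% in BBR+OA against OA. The shares were 21.3% and 21.5% in OA against control, and 20.1% and 18.8% in BBR+OA against BBR. List counts near these shares are not read as results about a list. In BBR against control, 8 of 19 tested were higher and 2 lower, with a median log2 fold change of 0.24. Ehhadh, the peroxisomal bifunctional enzyme, rose by 3.13 in log2 units (SE 0.087, adjusted p = 4.17e-13). The thioesterase Acot3 went from 3 reads in the control group to 55 in BBR, a ratio of 21.1 per total count (exact 95% interval 6.84 to 105, counting error only). Acot3 entered the test only through the BBR libraries, where it was high, so it is not read as support. Adh1, an alcohol dehydrogenase (-0.52), and Crot, the peroxisomal carnitine octanoyltransferase (-0.45), fell. In BBR+OA against OA, 11 of 18 were higher and 0 lower (median 0.34), led by Ehhadh (3.00) and the thiolase Acaa1b (0.84). In OA against control, 2 of 17 were higher, Acot4 (0.68) and Hsd17b4 (0.15), and 10 lower (median -0.19), with Acaa1b (-1.16) and Adh1 (-1.02) at the end. In BBR+OA against BBR, 4 of 19 were higher and 10 lower. Of 5 genes listed as electron donors or partners of P450, 2 were higher in OA against control, Por, the P450 reductase (0.42), and Cyb5a, cytochrome b5 (0.51). Another 2 were lower, Pgrmc1, a P450 partner and not an electron donor (-0.34), and Cyb5r3 (-0.12). Against BBR, 4 were higher in BBR+OA, led by Cyb5a (0.62) and Por (0.25), and Pgrmc1 was lower (-0.24). In BBR against control 0 of the 5 were higher and 2, Cyb5r3 (-0.23) and Pgrmc1 (-0.18), lower, and 0 passed in either direction in BBR+OA against OA.

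Among 22 hepatic PPAR alpha targets outside the family, 15 were higher and 2 lower in BBR against control (median log2 fold change 0.43), and 18 were higher and 0 lower in BBR+OA against OA (median 0.47). The shares over all genes were 13.2% and 14.5%, and 1.95% and 2.63%. In OA against control, taken up below, they were 21.3% and 21.5%. Counts near these shares are not read as results about a list. The acyl-CoA thioesterase Acot1 (3.53 and 3.99) led both comparisons, and Pdk4, a pyruvate dehydrogenase kinase, rose by 3.52 without OA. The falls without OA were Mgll, monoglyceride lipase (-0.79), and Ephx2, an epoxide hydrolase (-0.36). The medians of the Cyp4 genes in these comparisons were 0.13 and 0.22. In OA against control, 9 of the 22 were higher and 6 lower (median 0.074), from Cidec (1.01) and Acot2 (0.79) to Mgll (-1.05) and Vnn1 (-1.85). Of 13 PPAR genes, partners and coregulators, 2 were higher, Med1 (0.20) among them, and 3 lower in BBR against control, the largest falls being those of Nr0b2 (-2.12) and Rxrg (-1.05), and 0 passed in BBR+OA against OA. Nr0b2 had 38 to 45 reads per control library and 5 to 11 per BBR library. It entered the test through the control libraries, where it was high, so its call is not read as support. Ppara rose (0.62) and Pparg fell (-0.62) in OA against control, where 2 were higher and 6 lower. Pparg was not the largest fall: mean CPM went from 1.98 in control to 0.828 in OA for Nr0b2, and from 2.67 to 1.40 for Ppargc1a. Mean Pparg was 12.8 CPM in control and 12.7 in BBR.

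**Figure D5:**
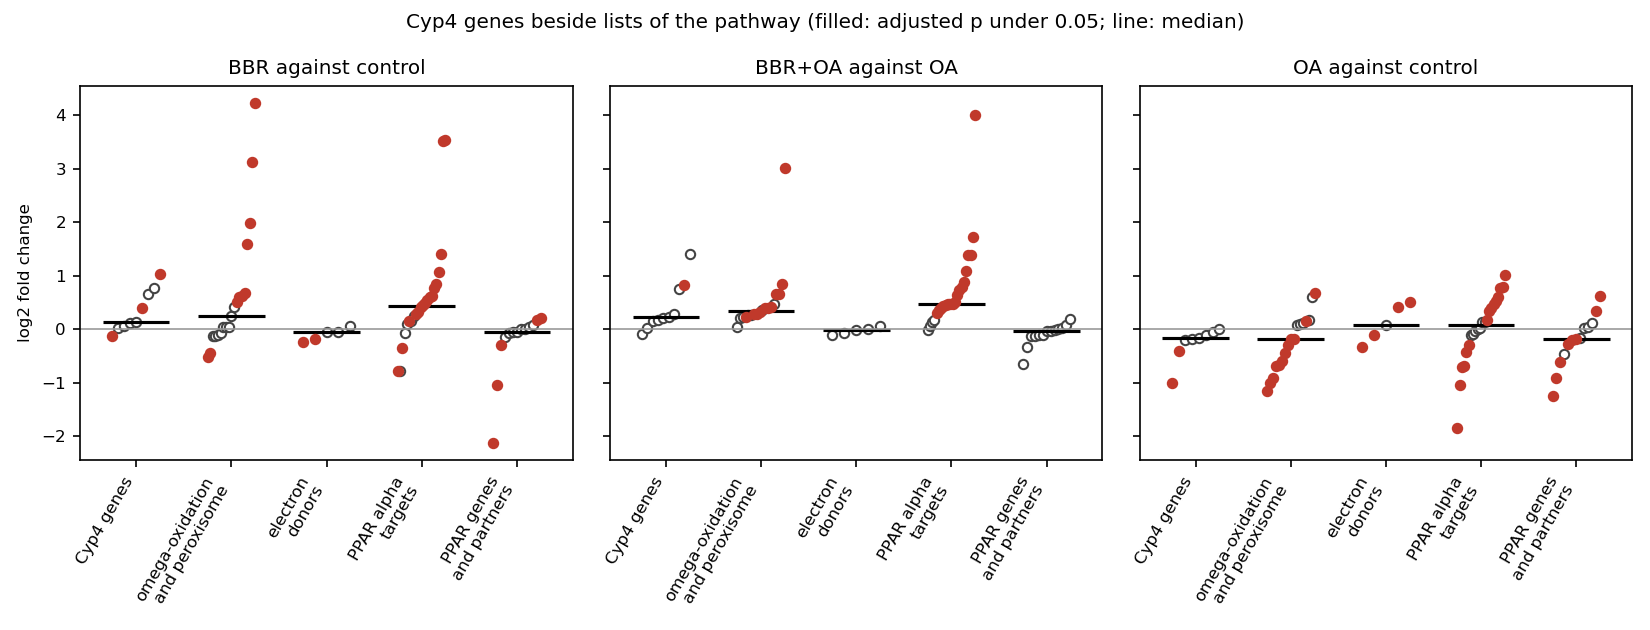
Log2 fold change (y axis) of each tested gene of the Cyp4 group and of 4 lists in 3 comparisons, filled for an adjusted p under 0.05, with the median as a line. The list labelled electron donors also holds the P450 partner Pgrmc1. With BBR the medians of the Cyp4 genes (0.13 and 0.22) lie below those of the PPAR alpha targets (0.43 and 0.47). Acot3, Ehhadh, Acot1 and Pdk4 lie far above every Cyp4 gene without OA, where Acot3 entered the test only through the BBR libraries.

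The genes outside the family whose pattern over the 12 libraries was nearest were found by the root mean square difference of log2 CPM, each gene centred on its own control mean, among 11380 genes with at least 1 CPM on average. For Cyp4a10 they were Kitl (difference 0.23) and Sgk2 (0.27). For Cyp4f15 they were Flt4 (0.17), a receptor of lymphatic and other endothelium, and Rasgrp3 (0.17). For Cyp4f14 they were Sparc (0.10) and Trim35 (0.11). Cyp4v3 was nearest to Get4 (0.039) and Nudt3 (0.040), Cyp4f13 to Ccar2 (0.042) and Serpina1c (0.049), Cyp4a12a to Tax1bp1 (0.044) and Qdpr (0.050), and Cyp4a12b to Map3k2 (0.13) and Cmtm4 (0.14). The low genes had no close partner: Cyp4a32 was nearest to Tulp3 (0.33) and Slc22a5 (0.35), Cyp4a14 to Trp53i11 (0.42) and Mybl2 (0.43), and Cyp4a31 to Fabp4 (0.54) and Fezf1 (0.57). These are descriptions without a test.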

How the data were processed

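For each of the 12 libraries the authors deposited FPKM and estimated counts, 1 line per feature. The estimated counts that the authors deposited were not whole in 12.7% of features and were rounded here, and the deposited FPKM was used as given, for levels between genes. The submitters' processing notes name the build mm10. The aligner, the counting tool and the use of strand are not given in the sources used here, so reads of antisense or overlapping genes cannot be told apart. Groups and replicate numbers came from the sample titles.

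Each comparison was fitted in edgeR 4.0.16 (R 4.3.3) on the 6 libraries of its groups, and the interaction on all 12. Genes were kept by filterByExpr (minimum count 10), scaled by TMM and tested by glmQLFTest (quasi-likelihood, two-sided), and p-values were adjusted after Benjamini and Hochberg over all genes tested. A gene was called at an adjusted p under 0.05. SEs were derived from the F statistic. CPM in the text is TMM-scaled over all 12 libraries, or per plain total where stated. DESeq2 1.42.0, other scalings, no filter, a replicate block, a fold threshold of 1.5, summed copies and fits without 1 library were alternatives. The fit was tested on simulated counts. Within groups, the 12 pairs of libraries differed by 2.77 to 7.61 times the counting noise (chi-square per degree of freedom), so no pair differed by counting noise alone. This measure cannot tell libraries of the same well or mouse from those of different ones.

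The members and lists were chosen with earlier results of these data known. Named besides the 10 genes were the 2 nearest genes outside the family for each, and from each list the called genes with the 2 largest rises and 2 largest falls in the comparisons described. Pparg, Spp1, Sox9, Adgre1, Marco, Reln and Col1a1 were named after their values were seen. Gene positions came from GENCODE release 21 and promoters from RefSeq. Protein sequences were not used here, and some genes that the naming rule selects are not reported here.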

Additional observations from a re-analysis of the deposited data

How the results depend on the processing

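Counts of Cyp4 genes called moved by over 1.5 times in these settings. At least 1.5-fold change left 1 of 3 in BBR against control, 1 of 2 in OA against control and 3 of 7 in OA against BBR, and it left 784 of 3484, 109 of 563, 1470 of 5311, 1287 of 4826, 1481 of 5461, 1537 of 5079 and 528 of 1551 genes of the whole table in BBR against control, BBR+OA against OA, OA against control, BBR+OA against BBR, BBR+OA against control, OA against BBR and the interaction. DESeq2 called 1 in BBR against control. In BBR+OA against BBR, upper quartile scaling called 6 and no filter on low counts 5. Summing near-identical copies reversed Cyp4a31 in BBR+OA against BBR, from 1.44 to -0.27. Leaving out 1 library gave 1 to 2 Cyp4 genes in BBR against control, 3 to 5 in BBR+OA against control, 216 to 632 genes of the whole table in BBR+OA against OA (249 when OA replicate 2 was left out, 373 for BBR+OA replicate 1, 230 for replicate 2 and 216 for replicate 3), and 1027 to 1679 in the interaction (1027 without OA replicate 2, 1028 without BBR replicate 2).

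The groups shared replicate numbers, and 9 of 12 libraries were nearest to a library of their own number, with weak correlations (-0.0272 to 0.155). That is more than matching blind to the numbers would be expected to give. The sources used here do not say whether equal numbers were handled together, so a pairing may exist. The main fits take no account of it, and the replicate block does. With the replicate block, 2 Cyp4 genes passed in BBR+OA against OA (Cyp4a32 added, adjusted p = 0.0395), 5 in BBR+OA against BBR (Cyp4a10 and Cyp4f14 added) and 5 in BBR+OA against control (Cyp4f14 and Cyp4v3 added). Of all genes tested, 1333 of 12278, 5281 of 12416 and 6163 of 12471 passed in these comparisons, against 563, 4826 and 5461 without the block. Cyp4a32 entered its test only through the BBR+OA libraries, where it was high, so its pass is not read as support. The block changed no other Cyp4 call.

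Cyp4a10 kept its rise in BBR against control and in BBR+OA against OA, and Cyp4f15 its fall in OA against control and in BBR+OA against BBR, past the threshold in every alternative in which single genes were tested, the fold threshold not among them. Cyp4a14, Cyp4a31 and Cyp4a32 had 1 to 34 reads per library, the lowest depth of the 10 genes.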

Other observations

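Because the Cyp4a12 genes are known for a male pattern in liver, 13 male-pattern and growth-hormone-dependent genes were read beside them. In BBR against control, 2 of 12 tested were higher and 3 lower (median log2 fold change 0.063), where 13.2% of all genes tested were higher and 14.5% lower: the steroid dehydrogenase Hsd3b5 (1.25) and Igf1 (0.50) rose, and Selenbp2 (-1.45) and Cyp7b1 (-0.54) fell. In BBR+OA against BBR, where Cyp4a12b fell, Hsd3b5 (-1.14) and Igf1 (-0.50) fell and Selenbp2 rose (1.98), with 1 of 11 higher and 3 lower, where 20.1% and 18.8% of all genes were. In BBR+OA against OA, 1 of 11 was higher, Nudt7 (0.35), and 0 lower, against 1.95% and 2.63% of all genes. In OA against control, 2 were higher, Selenbp2 (0.50) and Bcl6 (0.29), and 3 lower, led by Cyp7b1 (-0.85) and Stat5b (-0.31), against 21.3% and 21.5% of all genes. Nothing is read from the list as a group.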
